A study of Mus musculus with 8 samples.

Results

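The genes described here are 10 members of the Notch signalling pathway and its Numb adaptors, measured in mouse cortex with and without the splicing regulator Ptbp2. They are the adaptors Numb and Numbl, the receptors Notch1, Notch2 and Notch3, the ligands Dll1 and Jag1, the nuclear factor Rbpj and the target genes Hes1 and Hes5. A probe set was taken as a member if the platform annotation gave it exactly 1 of these symbols, which held for 239 of the 625534 probe sets on the array. The samples were 4 Ptbp2 KO cortices and 4 wild type cortices, all from embryos at embryonic day 18.5 on a mixed strain background (CD1 with C57BL/6). Each embryo gave 1 Affymetrix exon array, and the arrays are called knockout 1 to 4 and wild type 1 to 4 by their labelled numbers. Neither the kind of Ptbp2 allele nor the litter of an embryo is stated in the labels.

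Notch is a receptor on the cell surface that is cut when a ligand on a neighbouring cell binds it. The freed intracellular part enters the nucleus, joins the DNA-binding protein RBPJ and switches on Hes genes, whose products repress proneural genes. In the developing cortex this keeps radial glia, the neural stem cells, from turning into neurons too early. Numb and its relative Numbl are endocytic adaptor proteins known to antagonise Notch, and the Numb transcript is spliced in several forms. Ptbp2 is the polypyrimidine tract binding protein of neurons, an RNA-binding repressor of alternative exons. The comparison asks whether the levels of these genes, or the signal of a probe set relative to its own gene, differed without Ptbp2.

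The promoter of Hes5, a direct target gene, is shown because, of the member promoters searched, it was the one that held the motif of RBPJ. The RefSeq promoter table (GRCm38.p6) held windows for 9 of the 10 members (not Hes1), 13 windows in all, and the 250 bases before each annotated start were searched on both strands for the RBPJ motif GTGGGAA. A match was found in 1 of the 13 windows, that of Hes5 at chr4:154960673-154960922 on the plus strand, where the motif occurs on the same strand at bases -83 to -77 from the start and on the other strand at bases -226 to -220. The capitals mark both matches.
Hes5: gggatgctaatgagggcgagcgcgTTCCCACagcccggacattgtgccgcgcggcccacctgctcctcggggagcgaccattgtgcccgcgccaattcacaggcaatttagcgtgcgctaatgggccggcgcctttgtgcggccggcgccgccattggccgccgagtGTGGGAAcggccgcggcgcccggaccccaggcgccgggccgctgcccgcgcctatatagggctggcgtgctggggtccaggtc
Of all 32851 promoter windows in the table, 5.42% held this motif. The N box CACNAG, to which Hes proteins bind, was found in 4 of the 13 member windows, those of Notch1, Notch2, Notch3 and 1 of the Numb windows, and in 36.7% of all windows. A match is a run of letters and was not measured as a binding site.

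The arrays were first set against their labels. The targeted gene Ptbp2 stood at 5.95 ± 0.34 in knockout and 11.20 ± 0.14 in wild type cortex (log2 signal, SD, n = 4 each), so the labels held. Array medians ran from 6.82 to 6.93 in log2 signal, and no arrays were identical. Precision is limited by having 4 arrays in each group. The signal filter kept probe sets averaging 6.84 or more across the 8 arrays, which is the median over all probe sets, and 219 of the 239 member probe sets passed. The level of a gene on an array is the median of its passing probe sets, in log2 units, and 12960 genes with at least 4 such probe sets were compared. Since tissue was measured in bulk, fewer cells of a type and less RNA per cell cannot be told apart.

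None of the 10 genes passed the test in level. With limma and Benjamini-Hochberg adjustment over all 12960 genes, 0 of 10 members were called at an adjusted p under 0.05, where 0.116% of all genes were (0.054% higher and 0.0617% lower in knockout cortex). An unadjusted p under 0.05 was reached by 0 of 10 members and by 6.49% of all genes (2.7% higher and 3.79% lower). The groups overlapped in all 10 members, while they did not overlap in 3.65% of all genes. Means were higher in knockout cortex for 5 members and lower for 5, against 51% and 49% of all genes, with a median log2 fold change of 0.018 over the members and 0.0027 over all genes tested. The median size of the difference, without its sign, was 0.073 for the members and 0.076 for all genes tested. Adjusted p-values of the members lay between 0.77 and 1.0. The 95% intervals from limma are for the difference between group means, with a width set by the spread between arrays of a group. For all 10 members they lay between a ratio of 0.778 and a ratio of 1.31 of knockout over wild type signal. Since array signals are compressed at the low end, such a ratio can understate a change in RNA.

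**Figure D1:**
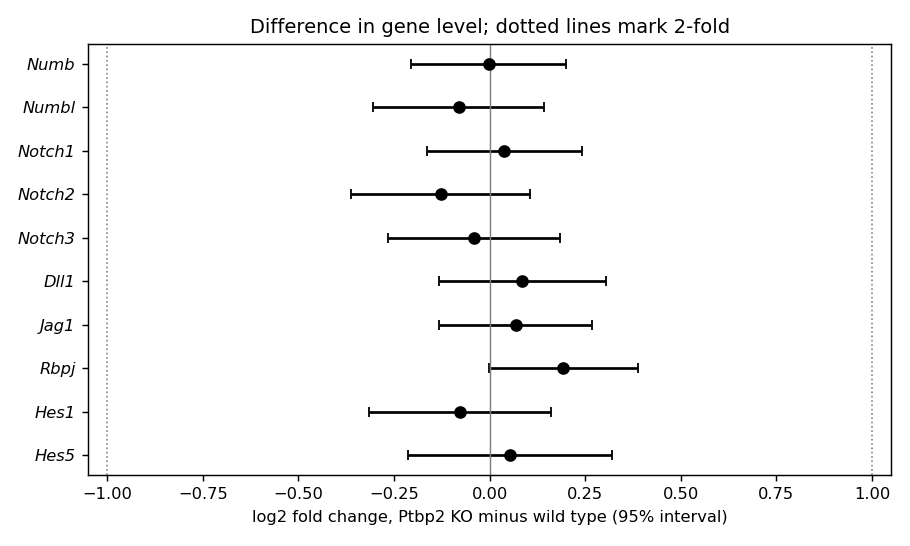
Log2 fold change of the level of each of the 10 genes (Ptbp2 KO minus wild type, x axis) with its 95% interval from limma, n = 4 arrays in each group; dotted lines mark a 2-fold difference. Each interval includes 0 and ends well inside the dotted lines, and Rbpj, at 0.19, lies farthest from 0.

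Among the adaptors, Numb had nearly the same mean level in both groups. Numb stood at 8.83, 8.72, 8.86 and 8.67 in knockout 1 to 4, against 8.79, 8.85, 8.58 and 8.87 in wild type 1 to 4. Wild type 3 was the lowest of the 8 arrays and wild type 4 the highest, so the groups overlapped fully. The log2 fold change of Numb was -0.0025 (SE 0.096, 95% interval -0.21 to 0.20, limma adjusted p = 1.0), and its sign turned when single arrays were left out or the probe sets were summarised otherwise (-0.095 to 0.072). Numbl, the paralog of Numb that is enriched in the nervous system, stood at 9.82, 9.39, 9.70 and 9.44 in knockout 1 to 4, against 9.64, 9.71, 9.64 and 9.68 in wild type 1 to 4. Knockout 1 and knockout 2 were the highest and the lowest of all arrays, and the 4 wild type values lay between them. The spread of Numbl was thus 0.21 in knockout and 0.036 in wild type cortex (SD, n = 4 each), and the log2 fold change was -0.081 (SE 0.10, adjusted p = 0.96), against 0.010 with the mean of the probe sets and 0.060 with a filter at the 75th percentile.

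The receptors are the proteins that ligands bind and that are cut to carry the signal. Notch1, the main receptor of radial glia and also present in vessels, stood at 9.20, 9.29, 9.27 and 9.26 in knockout 1 to 4, against 9.13, 9.08, 9.42 and 9.23 in wild type 1 to 4. The knockout values lay within 0.1 of each other and inside the wild type range. Its log2 fold change was 0.039 (SE 0.095, adjusted p = 0.98). Leaving out wild type 3 gave 0.11, and leaving out wild type 2 gave -0.0065. Notch2, a receptor of progenitors and many other cell types, stood at 9.03, 8.82, 9.17 and 8.98 in knockout 1 to 4, against 9.05, 8.996, 9.40 and 9.06 in wild type 1 to 4. Here wild type 3 was the highest array and knockout 2 the lowest, and the other 6 values of the groups interleaved. The log2 fold change of Notch2 was -0.13 (SE 0.11, adjusted p = 0.91), and -0.035 without wild type 3.

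Notch3, a receptor best known from mural cells of vessels and also present in progenitors, stood at 8.35, 8.28, 8.53 and 8.49 in knockout 1 to 4, against 8.37, 8.31, 8.72 and 8.41 in wild type 1 to 4. Wild type 3 was again the highest array, so that all 3 receptors had their highest level of the 8 arrays there. The log2 fold change of Notch3 was -0.040 (SE 0.11, adjusted p = 0.98), and 0.049 without wild type 3. Seen by probe set, the highest of the 8 values lay on wild type 3 for 17 of the 40 Notch1 probe sets that passed the filter, for 22 of 37 in Notch2 and for 18 of 40 in Notch3. Probe sets of 1 gene share a transcript, so these counts restate the gene levels, and the share over all probe sets was not computed. Mural cell markers had a mean level of 8.38 to 8.53 in knockout and 8.47 to 8.61 in wild type cortex over 9 genes, with wild type 3 at 8.61 the highest array here too. Single markers differed in this: of the 9, only Des (8.94) and Anpep (8.17) were highest on wild type 3. Pdgfrb (9.004), Rgs5 (10.62) and Abcc9 (8.19) were highest on knockout 3, and Kcnj8 (9.06) on knockout 4. Myh11 (8.05) was highest on wild type 2, Acta2 (8.85) on wild type 4 and Cspg4 (8.12) on wild type 1. The part of mural cells in the Notch3 values was not tested.

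Dll1, the Delta ligand of intermediate progenitors and young neurons, and Jag1, a Jagged ligand of progenitors and vessels, are the ligands of the set. Dll1 stood at 8.31, 8.12, 8.41 and 8.12 in knockout 1 to 4, against 8.27, 7.97, 8.13 and 8.25 in wild type 1 to 4. Knockout 3 was the highest array and wild type 2 the lowest, with overlap between the groups. The log2 fold change of Dll1 was 0.085 (SE 0.10, adjusted p = 0.95), and 0.024 without wild type 2. Jag1 stood at 8.02, 7.93, 8.12 and 7.94 in knockout 1 to 4, against 8.08, 7.79, 7.91 and 7.96 in wild type 1 to 4. It showed the same highest and lowest arrays as Dll1, and its log2 fold change was 0.068 (SE 0.094, adjusted p = 0.96), against 0.019 without wild type 2 and 0.0045 with a filter at the 75th percentile.

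Rbpj, the DNA-binding partner of the cut receptor, was the member with the smallest p. It stood at 9.68, 9.86, 9.74 and 9.66 in knockout 1 to 4, against 9.67, 9.50, 9.44 and 9.56 in wild type 1 to 4. All but knockout 4 lay above every wild type array, and knockout 4 lay just below wild type 1. The group means were 9.74 ± 0.091 in knockout and 9.54 ± 0.10 in wild type cortex (SD, n = 4 each), a ratio of 1.14 with an interval of 0.998 to 1.31. This difference did not pass the test, with a log2 fold change of 0.19 (SE 0.092), an unadjusted limma p of 0.052, an adjusted p of 0.77 and a two-sided exact permutation p of 0.057, where 0.0286 is the smallest that 4 against 4 arrays allow. By unadjusted p it ranked 880 of 12960 genes. It was 0.025 with no signal filter, which brings in 6 dim Rbpj probe sets, and 0.063 with the mean of the probe sets. The RefSeq table lists 3 Rbpj pseudogenes, and whether a probe set also binds their transcripts was not tested.

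The targets Hes1 and Hes5 encode helix-loop-helix repressors through which Notch holds progenitors. Hes1 stood at 8.39, 7.94, 8.45 and 8.19 in knockout 1 to 4, against 8.26, 8.38, 8.23 and 8.42 in wild type 1 to 4. Knockout 2 was the lowest array and knockout 3 the highest, so the knockout values enclosed the wild type values. The log2 fold change of Hes1 was -0.078 (SE 0.11, adjusted p = 0.96), and 0.023 without knockout 2. Hes5, whose promoter is printed above, stood at 9.70, 9.41, 9.60 and 9.68 in knockout 1 to 4, against 9.71, 9.64, 9.14 and 9.69 in wild type 1 to 4. Wild type 3 was the lowest of the 8 arrays, while the other 3 wild type values were close to those of knockout 1 and 4. Its log2 fold change was 0.054 (SE 0.13, adjusted p = 0.98) and turned to -0.083 without wild type 3. The lowest adjusted p of Hes5 under any alternative run was 0.83.

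**Figure D2:**
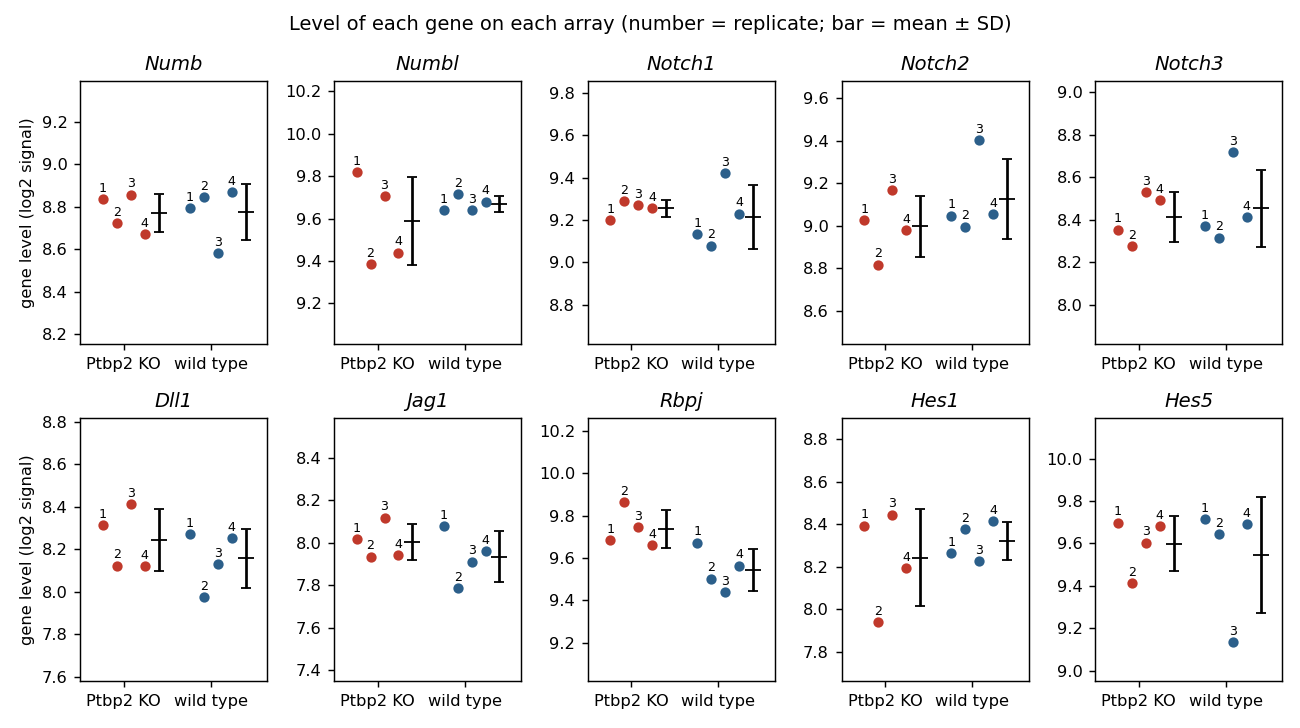
Level of each of the 10 genes (log2 signal, y axis, each panel spanning the same range around its own mean) on the 4 Ptbp2 KO arrays (red, left) and the 4 wild type arrays (blue, right); numbers are the labelled replicates and bars the mean ± SD. The groups overlap in all 10 panels, wild type 3 is the highest array for Notch1, Notch2 and Notch3 and the lowest for Numb, Rbpj and Hes5, and knockout 2 is the lowest for Numbl, Notch2, Notch3 and Hes1.

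Wild type 3 held the highest or the lowest of the 8 values for 6 of the 10 genes, and knockout 2 for 5 of them. How often these arrays were extreme over all genes was not computed, so the counts cannot be read as a trait of the members. Knockout 2 was also the array with the lowest mean of choroid plexus markers, at 7.57 over 6 genes, against 8.84 to 9.17 on the other 7 arrays. Radial glia markers, the cells in which Hes1 and Hes5 act, had a mean of 9.58 to 9.77 in knockout and 9.57 to 9.85 in wild type cortex over 7 genes, and intermediate progenitor markers 8.69 to 9.05 and 8.62 to 8.96 over 5 genes. Cortical neuron markers had a mean of 10.69 to 10.82 in knockout and 10.62 to 10.90 in wild type cortex over 8 genes. Markers of ganglionic eminence and striatum, which can come along in a dissection, stood at 8.89 to 9.29 in knockout and 9.25 to 9.53 in wild type cortex over 9 genes, and oligodendrocyte precursor markers at 8.19 to 8.28 and 8.27 to 8.63 over 6 genes. In each of the 12 marker lists the groups overlapped in the list mean. They did not overlap for the single markers Tac1 and Penk (ganglionic eminence and striatum), Sox9 (radial glia) and Olig2 (oligodendrocyte precursors), all lower in knockout cortex. The same held for the endothelial marker Esam, which was higher. These markers were picked out after their values were seen, and 3.65% of all genes had groups that did not overlap. Single markers leaned in 1 direction in some lists: 8 of 9 were lower in knockout cortex for ganglionic eminence and striatum. The same held for 6 of 6 for oligodendrocyte precursors and 6 of 6 for choroid plexus. Of the choroid plexus markers, Ttr, Clic6, Folr1, Otx2 and Enpp2 were lowest on knockout 2, and Kl on knockout 1. Ttr was at 9.36 on knockout 2, against 13.18 to 13.34 on the other knockout arrays. Their differences without knockout 2 were not computed, so this count cannot be read apart from that array. All 5 intermediate progenitor markers were higher, as were 7 of 9 for endothelium and 3 of 3 for microglia. Cortical neuron markers were higher in 6 of 8, the 1 erythroid marker was higher, and astrocyte markers were lower in 5 of 7. Radial glia markers split 3 higher and 4 lower, mural cell markers 4 and 5, and meningeal markers 3 and 3. Of all genes, 51% were higher. No marker was called, and the lowest limma adjusted p was 0.095, for Tac1 (log2 fold change -0.75). The part of these cell types in the levels of the 10 genes was not tested.

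At the level of single probe sets, 0 of the 219 member probe sets that passed the filter were called by limma after adjustment over all 312767 probe sets, where 0.0921% of all were called. At an unadjusted p under 0.05 there were 5, or 2.28% of them, against 7.44% of all probe sets. Of the 219, 114 had a higher mean in knockout cortex, against 55.6% of all probe sets. The smallest p was that of Rbpj probe set 5119853, which stood at 9.72, 9.93, 10.03 and 9.75 in knockout 1 to 4, against 9.52, 9.50, 9.47 and 9.52 in wild type 1 to 4. Its groups did not overlap, and its difference was 0.35 (SE 0.11, limma adjusted p = 0.50). The groups were also apart in Rbpj probe set 5465309 (0.11 higher in knockout), Dll1 5201359 (0.24 higher), Numbl 4580240 (0.15 lower) and Notch3 4705651 (0.25 lower), none of which was called. These 5 of 219, or 2.28%, compare with 4.24% of all probe sets. Probe sets of 1 gene share a transcript and are not replicates, so a majority in a direction, such as 33 of 40 higher in Notch1 and 31 of 37 lower in Notch2, restates the difference of the gene. Rbpj 5119853, Rbpj 5465309, Dll1 5201359 and Numbl 4580240 were chosen for the text after their values were seen.

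Usage was compared next, as the difference of each probe set from the median of its gene on the same array, which would move if an exon were included more or less often without Ptbp2. No member probe set was called: 0 of 219 by the splicing index with limma, where 0.00869% of all 195604 were, and 0 of 219 by limma diffSplice, where 0.212% were. At an unadjusted p under 0.05 the splicing index gave 7 member probe sets, or 3.2%, against 5.27% of all, and diffSplice gave 4, or 1.83%, against 4.57%. The median size of the usage difference was 0.086 for the member probe sets and 0.092 for all. Genome positions of the probe sets were not used here, so none can be assigned to an exon.

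**Figure D3:**
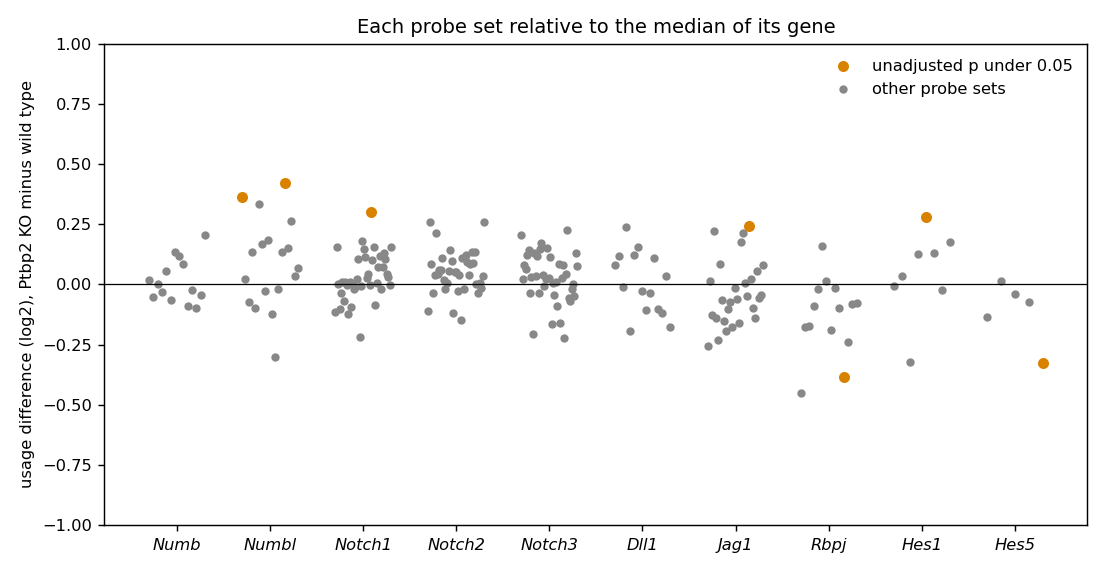
Usage difference (log2, Ptbp2 KO minus wild type, y axis) of each of the 219 member probe sets that passed the signal filter, by gene, each relative to the median of its gene on the same array; orange marks the 7 with an unadjusted limma p under 0.05. All points lie between -0.45 and 0.42, those of Numb between -0.099 and 0.20, and none passed the adjusted threshold.

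In Numb, whose alternative exons are known to differ between progenitors and neurons, the 14 probe sets that passed the filter had usage differences between -0.099 and 0.20. The most different was probe set 5581725, which relative to its gene stood at 0.50, 0.80, 0.55 and 0.58 in knockout 1 to 4, against 0.13, 0.36, 0.75 and 0.37 in wild type 1 to 4. Wild type 3 lay within the knockout range, and the difference was 0.20 (SE 0.13, limma adjusted p = 0.92), or 0.32 without wild type 3. The second, probe set 5191424, differed by 0.12 (SE 0.11, adjusted p = 0.93). No Numb probe set reached an unadjusted p under 0.05 in level or in usage.

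Numbl held the largest raised usage among the members. Probe set 5393314 stood at -1.63, -1.18, -1.25 and -1.04 relative to its gene in knockout 1 to 4, against -1.87, -2.07, -1.39 and -1.47 in wild type 1 to 4. Probe set 4348847 stood at 0.23, 0.79, 0.55 and 0.77 in knockout 1 to 4, against 0.12, 0.074, 0.53 and 0.16 in wild type 1 to 4. In both, knockout 1 lay among the wild type values and wild type 3 among the knockout values, and in 5393314 wild type 4 did so too. The differences were 0.42 (SE 0.18) and 0.37 (SE 0.15), each with an unadjusted p under 0.05 and a limma adjusted p of 0.92. The gene median they are set against was itself uneven between knockout arrays, as given above for Numbl. Numbl probe set 5146531 went the other way, by -0.30 (SE 0.30, limma adjusted p = 0.93). By diffSplice it differed by -0.42 (adjusted p = 0.86), the lowest adjusted p of the members by that method. It was chosen for the text after its values were seen.

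In the receptors, Notch1 probe set 5111854 had a usage of -1.33 ± 0.23 in knockout and -1.63 ± 0.082 in wild type cortex (SD, n = 4 each; difference 0.30, SE 0.12, limma adjusted p = 0.92). Notch1 probe set 4934863 differed by -0.22 (SE 0.12). The 2 named Notch2 probe sets, 4383496 and 5611607, were each higher by 0.26 relative to the gene, at values of 7.63 and 7.81 in knockout cortex, in the lower part of the range of that gene. Notch3 probe set 4705651 stood at 0.89, 0.88, 0.68 and 0.69 relative to its gene in knockout 1 to 4, against 0.92, 0.96, 1.17 and 0.92 in wild type 1 to 4. Its groups were apart by a small margin, with a difference of -0.21 (SE 0.095, adjusted p = 0.92), and Notch3 5191342 differed by -0.22 (SE 0.15).

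Of the ligands, Jag1 probe set 5228649 also had groups that were apart in usage. It stood at 0.85, 0.72, 1.06 and 0.85 relative to Jag1 in knockout 1 to 4, against 0.59, 0.69, 0.70 and 0.52 in wild type 1 to 4. Knockout 2 and wild type 3 nearly met, and the difference was 0.24 (SE 0.095, limma adjusted p = 0.92). Jag1 probe set 4342103 differed by -0.26 (SE 0.12). In Dll1, probe sets 5142338 and 4705503 differed by 0.12 (SE 0.097) and 0.24 (SE 0.19), and the second by 0.041 without wild type 3. Together with Rbpj 5119853, 3 of 219 member probe sets had groups apart in usage, or 1.37%, against 2.92% of all.

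Rbpj probe set 5445702 had a usage of -0.95 ± 0.33 in knockout and -0.57 ± 0.10 in wild type cortex (SD, n = 4 each). The difference was -0.39 (SE 0.15, limma adjusted p = 0.92), and Rbpj 4765645 differed by -0.17 (SE 0.090). Usage differences in Rbpj ran from -0.45 to 0.16 over the 14 probe sets that passed the filter. The probe set at -0.45 had a larger p than both named ones. Hes1 probe set 5159357 stood at 0.33, 0.78, 0.64 and 0.79 relative to its gene in knockout 1 to 4, against 0.21, 0.42, 0.27 and 0.51 in wild type 1 to 4, a difference of 0.28 (SE 0.12). The knockout values were the higher ones except in knockout 1. Hes1 probe set 4984289 went the other way, by -0.32 (SE 0.15), at a level of 6.86 in knockout and 7.26 in wild type cortex, close to the signal filter. In Hes5, which has 5 probe sets, probe set 5158828 differed by -0.32 (SE 0.13) and 4507333 by -0.14 (SE 0.13). Hes1 and Hes5 are each read by few probe sets, so each of them weighs on the gene median it is set against.

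The rest of the pathway was taken from 9 lists of known roles, with 82 genes, of which 71 had enough probe sets to be tested. None of the 71 was called by limma over all genes, and 2 had an unadjusted p under 0.05, or 2.82%, against 6.49% of all genes. Of the 71 genes, 30 had higher and 41 lower means in knockout cortex, with a median log2 fold change of -0.016, against 0.0027 over all genes. The 2 genes were Mfng and Maml2. Mfng, a fringe enzyme that adds sugars to Notch and changes which ligands it answers to, stood at 8.37, 8.72, 8.80 and 8.47 in knockout 1 to 4, against 8.40, 8.37, 8.16 and 8.42 in wild type 1 to 4. Its groups overlapped through knockout 1, and the log2 fold change was 0.25 (SE 0.11, adjusted p = 0.75). Maml2, a Mastermind co-activator that binds RBPJ with the cut receptor, stood at 8.24, 8.47, 8.25 and 8.44 in knockout 1 to 4, against 8.66, 8.61, 8.35 and 8.77 in wild type 1 to 4. Here wild type 3 lay among the knockout values, and the log2 fold change was -0.24 (SE 0.11, adjusted p = 0.75). Over 18 alternatives Maml2 ranged from -0.35 with array weights (adjusted p = 0.091, the lowest) to -0.051 with a filter at the 75th percentile, and 10 of them gave an unadjusted p under 0.05.

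**Figure D4:**
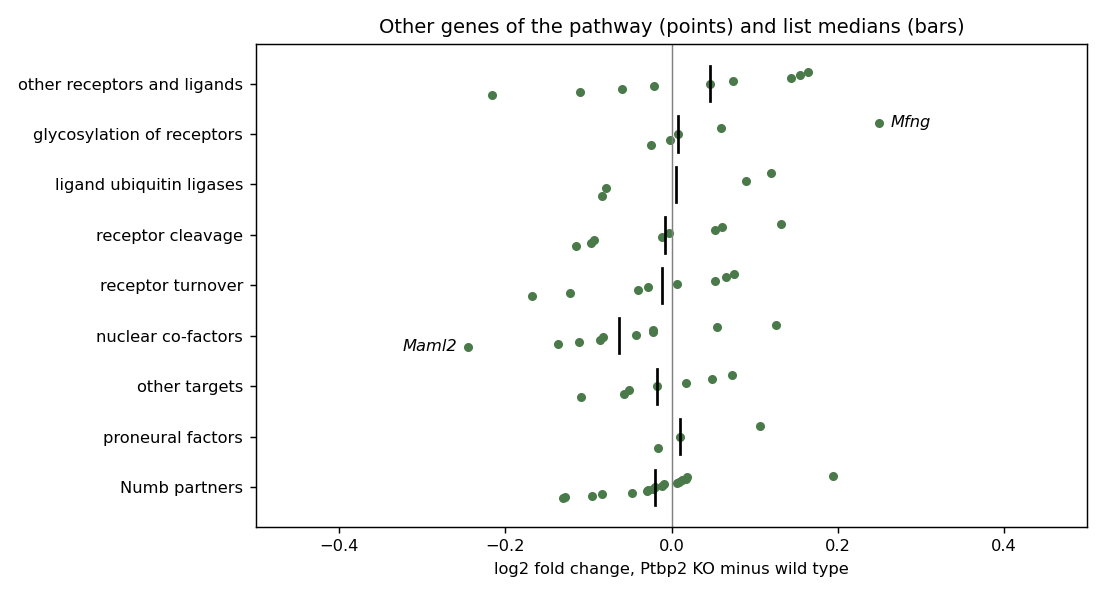
Log2 fold change in level (Ptbp2 KO minus wild type, x axis) of the 71 tested genes in 9 lists of the Notch pathway and of Numb partners, 1 point per gene, with the list median as a bar; n = 4 arrays in each group. All points lie between -0.24 and 0.25, the named genes are the 2 with an unadjusted limma p under 0.05, and none passed the adjusted threshold.

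Among other receptors and ligands, 5 of 9 were higher and 4 lower, with Dlk2, a Delta-like protein, at 0.16 and the contactin Cntn1 at -0.22. The groups did not overlap for Cntn1 (10.33 to 10.63 in knockout and 10.66 to 11.01 in wild type cortex), nor for Jag2, a Jagged ligand, in the other direction (8.83 to 9.05 in knockout and 8.73 to 8.82 in wild type cortex, log2 fold change 0.14). Neither passed the test (limma adjusted p = 0.78 for Cntn1 and 0.84 for Jag2), and 3.65% of all genes had groups that did not overlap. Jag2 was chosen for the text after its values were seen, as was the comparison of single mural cell markers above. In the glycosylation list, 3 of 5 were higher, and the fringe gene Rfng was at -0.024. Of the ubiquitin ligases that act on ligands, Mib2 was at 0.12 and Neurl1b at -0.079, with 2 of 4 higher. The genes of receptor cleavage split 3 higher and 5 lower, with Aph1a, a subunit of gamma-secretase, at 0.13 and the protease gene Adam10 at -0.11. Genes of receptor turnover split 4 and 4, with the deltex gene Dtx1 at 0.076 (-0.16 with a filter at the 75th percentile) and Fbxw7, which targets the cut receptor for decay, at -0.17. In none of these lists did a gene reach an adjusted p below 0.75.

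Nuclear co-factors were lower in 8 of 10, with a list median of -0.063, and Cir1, a co-repressor that binds RBPJ, was at 0.13. The list named other targets, which holds Hes, Hey and related genes, split 3 higher and 4 lower. Its values ran from -0.11 for Heyl to 0.072 for Hes6, an antagonist of Hes1. Whether each of these genes is a target of Notch in this tissue was not tested. Proneural factors, the genes that Hes proteins repress, had 3 tested members, with Neurog2 at 0.11 (-0.081 with array weights) and Neurod1 at -0.016. Partners of Numb, among them the subunits of the endocytic adaptor AP-2, were lower in 11 of 17, with the ubiquitin ligase gene Lnx1 at 0.19, with overlapping groups and wild type 3 as the lowest array, and the endocytic adaptor gene Eps15 at -0.13. None of the genes in these 4 lists passed the test, and the lowest adjusted p was that of Maml2.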

How the data were processed

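RNA from 8 embryonic cortices was hybridised to Affymetrix mouse exon arrays, 4 Ptbp2 KO and 4 wild type, after Trizol extraction and whole-transcript sense labelling, per the labels' protocols. The authors deposited 1 log2 signal for each probe set and array. The submitters' processing notes name RMA, Expression Console and mm9, without tool versions. RMA includes quantile normalization, so differences in total RNA are removed. Low array signals are also compressed.

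Of 625534 probe sets, the platform annotation gave 1 symbol to 303629, and 3919 old symbols were updated through the RefSeq gene table. The 312767 probe sets with a mean of at least 6.84 were retained. Gene levels, probe sets and usage (the gene's median subtracted from each of its probe sets; Ptbp2 left out) were fitted by limma 3.58.1 (lmFit, eBayes; R 4.3.3) over the whole table, at an adjusted p of 0.05. The scripts were tested on simulated arrays. Replicates are separate embryos, per the series design. The members, lists and tests were chosen with earlier results of these data known. The text names all members, the 2 probe sets per member with the smallest usage p, and in each list the gene with the smallest p in each direction. Alternatives were each array left out, both arrays numbered 3 left out, a replicate block, other filters, normalizations, variance models, array weights, gene summaries, probe set minimums and diffSplice. Promoter sequences are from RefSeq. Arrays give no count depth.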

Additional observations from a re-analysis of the deposited data

Results flagged for a closer look

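In each group of 4 arrays, the array farthest from the others was compared with the range of the group by Dixon's criterion at 95%. Of 120 such groups, 10 held an outlying array, or 8.33%, where about 5% would be met in independent groups of normal values. Many of the groups were of probe sets or genes chosen for small p, and all share the same 8 arrays. The shares are therefore not a test against chance. Among the members, Notch2 was at 9.404 on wild type 3, against 8.996 to 9.055 on the other wild type arrays, and Hes5 at 9.136 on wild type 3, against 9.642 to 9.715. The usage of Notch3 probe set 4705651 was 1.169 on wild type 3, against 0.917 to 0.959. Of the other pathway genes, wild type 3 lay apart for Hes6 (9.051, against 9.187 to 9.208) and Lnx1 (7.419, against 7.778 to 7.807). On wild type 1 the same held for Cntn1 (11.01, against 10.66 to 10.70), Fbxw7 (9.918, against 9.735 to 9.760) and Rfng (9.736, against 9.888 to 9.909). Neurl1b was at 8.837 on wild type 4, against 9.017 to 9.027, and Cntn1 at 10.33 on knockout 3, against 10.59 to 10.63 on the other knockout arrays. Without wild type 3, Notch2 was at -0.035 and Hes5 at -0.083, and neither passed the test.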

How the results depend on the processing

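No member was called in gene level or by single probe set, and none of the other pathway genes, in any of 18 alternatives, nor any member in usage in 19, among those that each alternative tested. Of 867 values recomputed for 48 named genes and probe sets, 836 kept their sign, none passed the threshold, and 31 changed sign, all of them gene levels. The 20 probe sets and 18 pathway genes among the 48 were chosen for small p in these same data. That choice favours a kept sign, so the kept signs do not show that the usage differences are stable. With both arrays numbered 3 left out, Notch3 was at 0.0093, Hes5 at -0.085, Neurog2 at -0.039 and Aph1a at -0.0057. Numb was at 0.020 with no filter, at 0.072 with a filter at the 75th percentile and at 0.013 with the mean of probe sets. That filter also gave 0.060 for Numbl and -0.16 for Dtx1, and the mean 0.010 for Numbl, -0.059 for Hes5 and -0.026 for Dtx1. Array weights gave 0.00071 for Notch3, -0.024 for Hes5 and -0.081 for Neurog2. With 1 array left out in turn, the ranges were -0.066 to 0.031 for Numb, -0.0065 to 0.11 for Notch1, -0.086 to 0.049 for Notch3, -0.15 to 0.023 for Hes1, -0.083 to 0.12 for Hes5, -0.064 to 0.032 for Rfng and -0.097 to 0.031 for Neurod1. The cause of these changes was not tested. With the filter at the 75th percentile, Dll1 and Hes1 had too few probe sets and gave no value. With the replicate number as a block, 0 members were called as well (Rbpj 0.19, adjusted p = 0.59). Correlations of the deviations of same-numbered arrays were 0.25, -0.0039, 0.033 and 0.17, against -0.30 to 0.19 for arrays of unlike number. The highest of all was that of the arrays numbered 1, so these values do not settle whether the numbers are pairs. The main fit did not take them as pairs. Rbpj ranged from 0.025 to 0.24, with an unadjusted p under 0.05 in 5 of 18 alternatives and no adjusted p below 0.42. Precision is limited by 4 arrays in each group, and dim probe sets carry signals near background.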

Other observations

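The 20 member probe sets below the signal filter were left out of the comparisons and are given as values. They belonged to Notch1 (6), Rbpj (6), Numb (3), Jag1 (3), Numbl (1) and Notch3 (1), and in all 20 the groups overlapped. The 3 of Numb lay between 2.93 and 3.62 on average over the 8 arrays, far below the other 14 of that gene, which began at 7.08. The largest difference was in Rbpj probe set 4882262, at 3.71 in knockout and 4.47 in wild type cortex. Nearest to the filter were Notch1 5365326, with a mean of 6.84, just outside, and Jag1 4450733, with a mean of 6.89, just inside.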
